A study of Mus musculus with 4 samples.

Results

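The genes described here encode the MHC class II chains, the invariant chain, the factors that load peptide onto class II molecules and the activator of their transcription. They were found as the probe sets whose platform annotation names H2-Aa, H2-Ab1, H2-Eb1, H2-DMa, H2-DMb1, H2-Oa, H2-Ob, Cd74 or Ciita. These 9 genes had 19 of the 45037 probe sets kept, of which 16 carried a single symbol and 3 carried a second one. Expression was measured in unsorted thymocytes of mice aged 7 weeks, on 1 Affymetrix array per animal. The groups were 2 animals with a hypomorphic allele of Atg16l1, an allele of reduced function, and 2 control animals, called wild-type in the sample descriptions. Each group held 1 male and 1 female, without a label that ties an array to a sex. Strain, the construction of the allele and any treatment are not stated in the labels.

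MHC class II molecules present peptides from endosomes and lysosomes to CD4+ T cells. An alpha and a beta chain assemble with the invariant chain, which guides them to endosomes and fills the peptide groove, and a remnant of it is later exchanged for peptide with the help of H2-DM. In the thymus, class II is carried by epithelial cells, dendritic cells, B cells and macrophages, and mouse thymocytes themselves largely lack it. Autophagy, in which ATG16L1 takes part, is a known route for cytosolic antigens into the class II pathway.

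Transcription of these genes is governed by a conserved promoter module, in which the RFX complex binds the X box, the factor NF-Y binds the Y box, and CIITA, which does not bind DNA itself, is recruited to the assembled complex. RefSeq promoter windows (GRCm38.p6) were at hand for 6 of the 9 genes. The letters GNAAC, which lie within the X box of several class II genes, followed after 25 to 35 bases by the Y box core ATTGG, were searched in the 250 bases before each start. The spacing was set after these sequences were seen. This pair stood on the gene's strand in 5 of the 6 genes, H2-DMa being the exception in both of its 2 windows. Of all 32851 windows of that length, 0.788% held the pair on the gene's strand and 1.55% on either strand. By themselves ATTGG was in 33.8% and GNAAC in 79.6% of windows, on either strand. The 120 bases before the start of the 5 genes are shown because they are what these members share in sequence, with GNAAC and ATTGG in capitals, 5′ to 3′ on the gene's strand.
H2-Aa, chr17:34287824-34287943, minus strand: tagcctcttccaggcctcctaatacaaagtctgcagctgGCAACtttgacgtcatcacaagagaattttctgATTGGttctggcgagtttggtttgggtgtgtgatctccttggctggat
H2-Eb1, chr17:34305747-34305866, plus strand: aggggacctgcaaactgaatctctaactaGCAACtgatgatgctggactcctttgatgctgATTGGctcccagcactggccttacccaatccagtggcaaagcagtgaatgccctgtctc
H2-DMb1, chr17:34153071-34153190, plus strand: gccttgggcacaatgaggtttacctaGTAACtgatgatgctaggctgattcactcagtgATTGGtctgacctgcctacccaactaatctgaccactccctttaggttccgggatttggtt
H2-Oa, chr17:34092259-34092378, plus strand: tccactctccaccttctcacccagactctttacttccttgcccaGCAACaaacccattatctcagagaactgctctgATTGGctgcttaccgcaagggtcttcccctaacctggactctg
H2-Ob, chr17:34238785-34238904, plus strand: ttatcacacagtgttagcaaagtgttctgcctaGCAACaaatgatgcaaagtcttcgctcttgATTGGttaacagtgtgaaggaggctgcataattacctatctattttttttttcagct
In these windows ATTGG began 43 to 61 bases before the start, and 25 to 28 bases separated the boxes. A match describes the letters and shows no binding.

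The deposited signals had different medians, from 23.5 to 38.4, so each array was centred on a common median on the log2 scale. After centring, the 10235 genes tested, each by its brightest probe set, still had a median log2 change of 0.21, so changes are also given relative to that median. Throughout, values are given for replicates 1 and 2 of each group in that order. Atg16l1 itself gave 108 and 70.8 in hypomorphs as against 184 and 241 in controls (deposited signals), and its log2 change was -1.57 ± 0.18 (SE; limma adjusted p 0.0142). That call was lost without either control array, at adjusted p-values of 0.0751 and 0.0893 without control replicates 1 and 2.

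Relative to the other genes tested, class II genes lay together on the lower side in hypomorph thymocytes, by a small amount and with no single gene past the threshold. Of the 8 member genes with a tested probe set of their own, all 8 lay below the median change of the tested genes, with a median of -0.43 relative to it. Of those 8 genes, 7 had a log2 change below 0 on centred signals, as had 17.5% of all tested genes, while on uncentred signals only Ciita of these 7 did. The groups did not overlap, with the hypomorph arrays lower, for 5 of the 8 member genes and for 4.90% of all tested genes. Over probe sets these numbers were 10 of 15 tested member probe sets against 7.04% of all tested, and 13 of 15 against 18.8% when array medians were taken over tested probe sets only. The probe sets of 1 gene share their target and are not independent of each other. The member genes share an activator and were measured on the same arrays, so they are not independent either. They were chosen with earlier results of these data known, so their counts were not tested against the shares of all genes.

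Tested singly, 0 of the 15 member probe sets passed an adjusted p of 0.05 in limma, where 14 of 22519 probe sets (0.0622%) did. Their adjusted p-values ran from 0.283 to 0.905. At an unadjusted p under 0.05, 1 of the 15 was lower, that of Cd74, as were 1.19% of all probe sets. With groups of 2 the smallest p of an exact permutation test is 0.333. In RNA of unsorted thymocytes, fewer class II positive cells and less class II RNA per cell cannot be told apart.

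**Figure D1:**
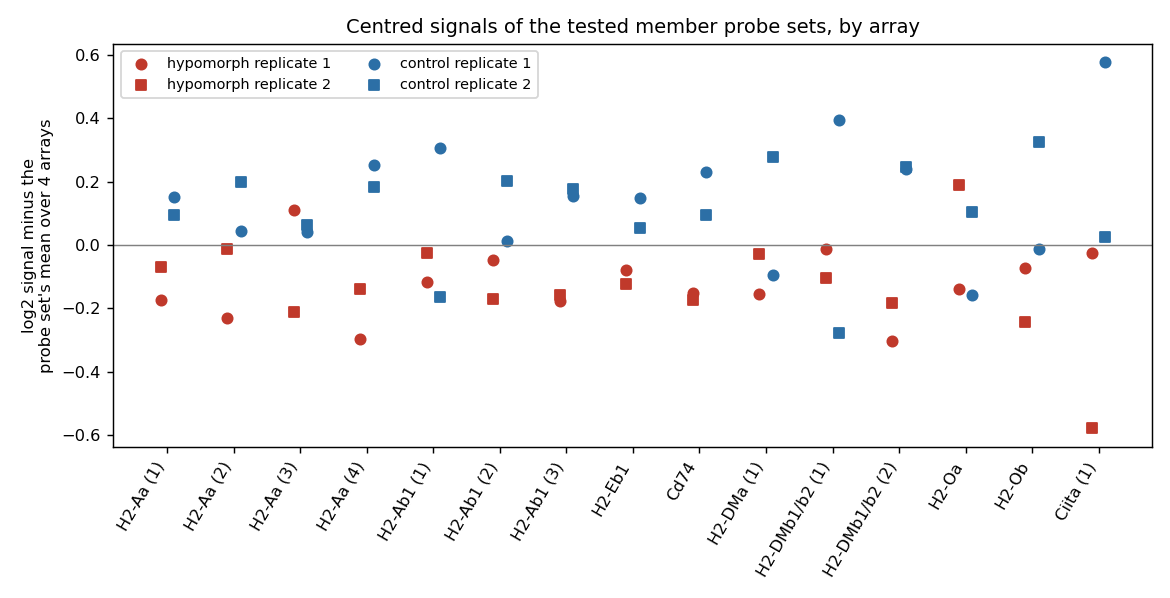
Each point is the centred log2 signal of 1 array minus the probe set's mean over the 4 arrays, for the 15 tested member probe sets (x axis). Numbers in brackets order a gene's probe sets by their control mean. Red marks hypomorph and blue control arrays. In 10 of the 15 both red points lie below both blue points, and H2-Oa is among the 5 where they mix.

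Among the classical chains, H2-Aa encodes the alpha chain of the I-A molecule and has 4 probe sets. The brightest had deposited signals of 1482 and 1161 in hypomorphs and 1178 and 1301 in controls. After centring its log2 signals were 10.14 and 10.25 in hypomorphs and 10.47 and 10.41 in controls. Both hypomorph values lay below both control values, with a log2 change of -0.24 ± 0.13 (SE), or -0.46 relative to the tested genes (limma adjusted p 0.352). The other H2-Aa probe sets had log2 changes of -0.24, -0.44 and -0.10. The last of these overlapped between groups, since hypomorph replicate 1 was the highest array at 8.23.

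H2-Ab1 encodes the beta chain that pairs with H2-Aa, and its 3 probe sets differed in how far their replicates agreed. The brightest had deposited signals of 506 and 393 in hypomorphs and 430 and 357 in controls, and its centred log2 signals were 8.60 and 8.69 against 9.02 and 8.55. Here control replicate 2 was the lowest of the 4 arrays, and the log2 change was -0.14 ± 0.17 (SE, adjusted p 0.671). Relative to the tested genes it was -0.35, and it ran from -0.64 without control replicate 2 to -0.07 without control replicate 1. A dimmer H2-Ab1 probe set had the closest replicates of the member probe sets tested, at 7.48 and 7.50 in hypomorphs and 7.81 and 7.83 in controls. It had a log2 change of -0.33 ± 0.16 (SE) and an unadjusted p of 0.0574 (adjusted p 0.320). The third was at -0.22, without overlap of the groups.

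H2-Eb1 encodes the beta chain of the I-E molecule. Its deposited signals were 782 and 552 in hypomorphs and 580 and 626 in controls, and its centred log2 signals were 9.22 and 9.18 against 9.45 and 9.36. The groups did not overlap, and the log2 change was -0.20 ± 0.13 (SE, adjusted p 0.431), or -0.41 relative to the tested genes. The partner alpha chain gene H2-Ea, which is not expressed in mouse strains that carry a deletion in it, had signals of 8.10, 5.68, 5.54 and 6.46 and was too dim to be tested.

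Cd74, the invariant chain gene, had deposited signals of 1393 and 997 in hypomorphs and 1149 and 1204 in controls. Centred, these were 10.05 and 10.03 against 10.43 and 10.30 on the log2 scale, so the hypomorph arrays nearly coincided and both lay below the controls. The log2 change was -0.33 ± 0.13 (SE), which puts the hypomorph signal at 79.8% of the control signal (95% confidence interval 65.5 to 97.2%). The unadjusted p was 0.0289 and the adjusted p in limma 0.283. Relative to the tested genes the change was -0.54, and 4.11% of tested genes had a lower one.

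A difference between probe sets of the same array does not depend on how arrays are centred, though quantile or cyclic loess normalization can change it. Set against Cd74 in this way, the brightest H2-Aa probe set shifted by 0.08 between groups and that of H2-Ab1 by 0.18, each with overlapping groups. H2-Eb1 shifted by 0.12, with SDs of 0.01 and 0.03 within the groups (n = 2 each) and no overlap. The shifts of the chains against the invariant chain were thus smaller than their common distance from the tested genes.

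**Figure D2:**
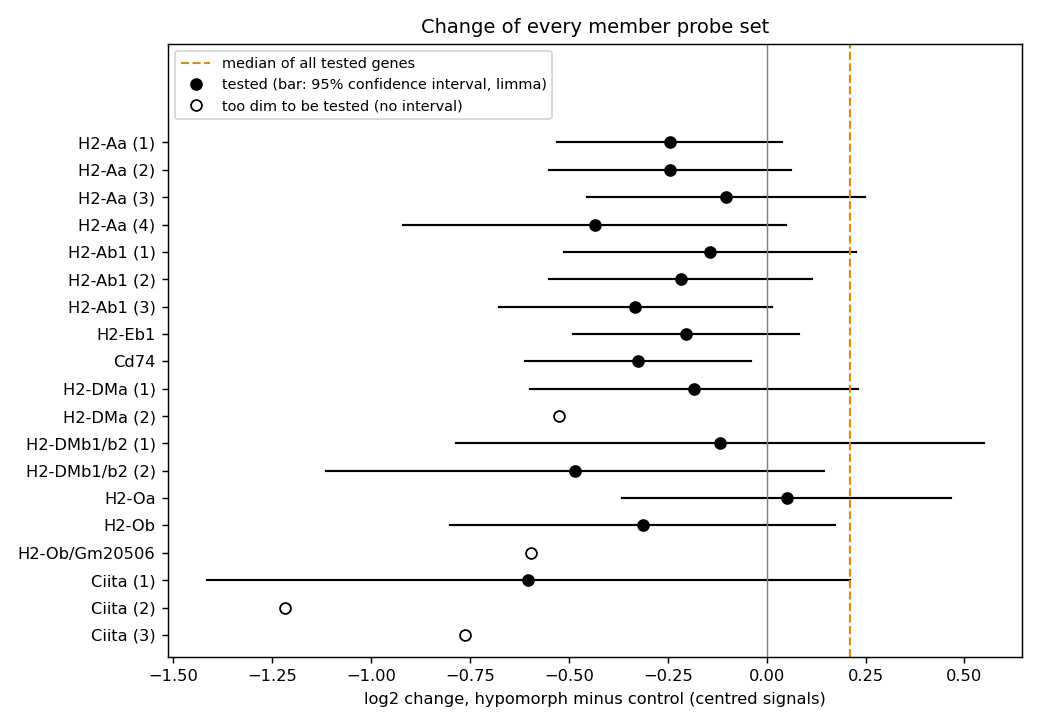
Log2 change of each of the 19 member probe sets (y axis; numbers in brackets order a gene's probe sets by their control mean), hypomorph minus control on centred signals. Filled points are the 15 tested probe sets with 95% confidence intervals from limma, open points the 4 too dim to be tested. The solid line is 0 and the dashed line the median of tested genes at 0.21. Points left of 0 are 18 of the 19, and 1 interval, that of Cd74, lies wholly below 0, a side that depends on the scaling of the arrays.

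H2-DM, the heterodimer of H2-DMa and an H2-DMb chain, exchanges the invariant chain remnant for peptide. The brighter H2-DMa probe set had deposited signals of 186 and 148 in hypomorphs and 122 and 184 in controls. Its centred log2 signals of 7.17 and 7.29 against 7.23 and 7.60 overlapped, and its log2 change was -0.18 ± 0.19 (SE, adjusted p 0.621). The other H2-DMa probe set was dim, with signals of 14.7, 13.8, 12.0 and 22.9, and was not tested. H2-DMb1 had no probe set of its own. Its 2 probe sets also carry the symbol of the neighbouring gene H2-DMb2, so signals of these genes cannot be separated there. They had log2 changes of -0.48 ± 0.29 (SE, adjusted p 0.398) and -0.12 ± 0.30 (SE, adjusted p 0.857). On the former, signals of 43.9 and 34.2 in hypomorphs lay below controls of 40.3 and 46.9 after centring, at 5.14 and 5.25 against 5.68 and 5.68. The latter overlapped and had a change of 0.06 above the tested genes without control replicate 1.

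H2-DO, made of H2-Oa and H2-Ob, inhibits H2-DM and is found mainly in B cells and some thymic epithelial cells. H2-Oa was the member nearest to the tested genes. Its deposited signals were 194 and 178 in hypomorphs and 121 and 167 in controls, and its centred log2 signals of 7.23 and 7.55 against 7.21 and 7.47 overlapped fully. Its log2 change was 0.05 ± 0.19 (SE, adjusted p 0.905), or -0.16 relative to the tested genes, and 22.4% of tested genes had a lower one. Against Cd74 on the same array H2-Oa shifted by 0.38, with SDs of 0.25 and 0.28 (n = 2 each) and groups that were separated by only 0.0031, a difference that was given no test of its own. H2-Ob had deposited signals of 113 and 72.5 in hypomorphs and 74.0 and 108 in controls. Its centred log2 signals of 6.46 and 6.29 lay below 6.52 and 6.85, hypomorph replicate 1 by little, and its log2 change was -0.31 ± 0.22 (SE, adjusted p 0.473). A further H2-Ob probe set, shared with Gm20506, was too dim to be tested at 21.2, 24.4, 23.4 and 33.0.

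Ciita, the activator that class II transcription depends on, was dim on all 3 of its probe sets. The brightest, the only tested one, had deposited signals of 38.4 and 17.9 in hypomorphs and 36.9 and 28.4 in controls. The centred log2 mean was 4.68 ± 0.39 in hypomorphs and 5.28 ± 0.39 in controls (SD, n = 2 each). The higher hypomorph array, replicate 1 at 4.96, lay just below the lower control array, a gap far smaller than the spread within the groups. The log2 change was -0.60 ± 0.37 (SE, adjusted p 0.413). Relative to the tested genes it was -0.81, the lowest of the members, and it ran from -1.14 without control replicate 2 to -0.48 without control replicate 1. The untested probe sets had signals of 11.4, 9.50, 22.8 and 19.7, and of 15.6, 3.81, 8.29 and 16.5, in the order of hypomorph and then control arrays. The former had lower signals on both hypomorph arrays. At these levels the pseudocount of 2.29 compresses changes.

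The class II genes are interleaved on the chromosome with genes of the class I peptide supply and with Brd2, which encodes a chromatin reader. In the order of the reference annotation, 15 protein-coding genes run from H2-Oa to Btnl2, of which 13 were tested. The 8 tested class II genes among them, H2-DMb2 and H2-Eb2 included, had a median change of -0.40 relative to all tested genes, within -0.52 to -0.16. The 5 other genes had a median of 0.06, within -0.07 to 0.09. These were Brd2, the immunoproteasome subunits Psmb8 (0.02) and Psmb9 (0.09), and the peptide transporter subunits Tap1 (0.06) and Tap2 (0.08), each relative to all tested genes. The lowest of them, Brd2 at -0.07, was above the highest class II gene, H2-Oa at -0.16, but neighbouring estimates had SEs of 0.13 to 0.27 and the difference between the sets was given no test. This order of the 2 sets was lost without 3 of the 4 arrays. Without hypomorph replicate 1, H2-Oa at -0.04 was above 2 of the 5 other genes, the lowest being Brd2 at -0.17. Without control replicate 2, H2-Oa at -0.08 was above Brd2 at -0.10, and without control replicate 1, H2-DMb2 at 0.10 was above 4 of the 5. With an array left out, the median of the 8 class II genes ran from -0.53 to -0.27 and that of the 5 others from -0.03 to 0.12. H2-Eb2, a second class II beta chain gene, was at -0.46 and H2-DMb2 at -0.28.

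**Figure D3:**
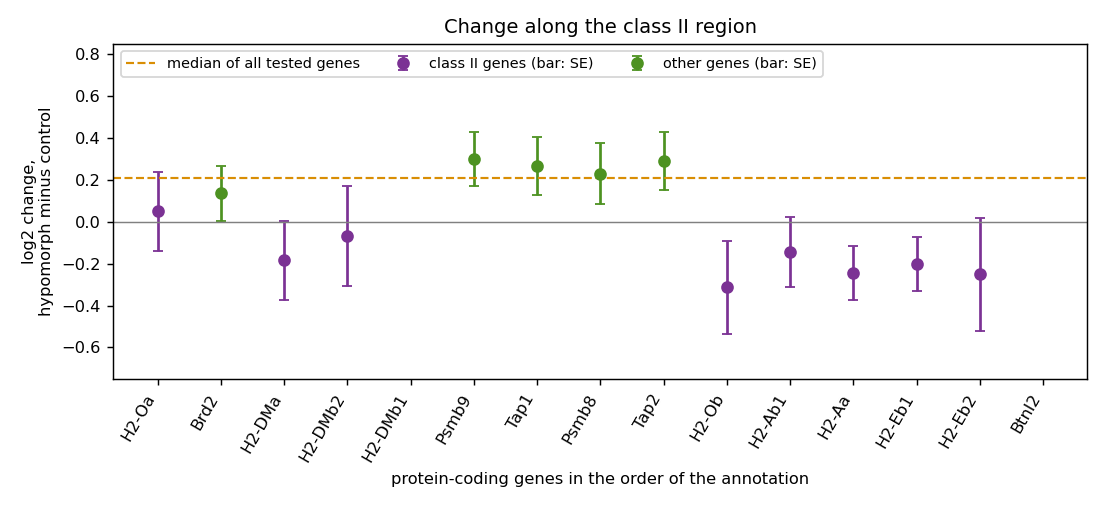
Log2 change (y axis, hypomorph minus control, centred signals) with its SE for the tested genes among the 15 protein-coding genes from H2-Oa to Btnl2, in annotation order (x axis, not to scale). Purple marks class II genes and green other genes, and the dashed line is the median of tested genes at 0.21. The 5 green points lie near that line and the 8 purple points below it, an order that was lost without 3 of the 4 arrays, while the side of 0 depends on the scaling.

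The DNA-binding factors that CIITA joins lay close to the tested genes, on both sides. Of 7 tested genes of this complex, 2 lay below and 5 above the median of the tested genes, with a median of 0.07, and 0 were called in limma. Without hypomorph replicate 1 this turned to 5 below and 2 above, with a median of -0.07. The NF-Y subunits Nfya, Nfyc and Nfyb were at 0.18, 0.10 and 0.10 relative to the tested genes, and Rfx5, the DNA-binding subunit of RFX, at 0.07. The other RFX subunits Rfxap and Rfxank were at 0.04 and -0.22, and Creb1, which also binds the X box region, was at -0.08. Unadjusted p-values, for which the reference is 0 and not that median, were under 0.05 for 2 of the 7, Nfya (0.0320) and Nfyc (0.0379), and for 19.1% of all tested genes. Nfya had deposited signals of 595 and 347 in hypomorphs and 240 and 315 in controls.

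Among 9 tested genes that act upstream of Ciita, 7 lay below and 2 above the median of the tested genes, with a median of -0.12, which was -0.05 without control replicate 2, and 0 were called. This was also the count at an unadjusted p under 0.05, beside 19.1% of all tested genes. Irf1, an interferon-induced activator, was at 0.08, and the receptor chain Ifngr1 at -0.01. The kinases Jak2 and Jak1 of interferon receptor signalling were at 0.04 and -0.05. These 4 had the lowest p-values against 0, which, with the tested genes shifted upwards, favours the genes with higher changes. The other 5 were lower, with Spi1, a factor of myeloid and B cells, at -0.35, Irf4 at -0.30, the receptor chain Ifngr2 at -0.28, Irf8 at -0.26 and the signalling inhibitor gene Socs1 at -0.12. Ifng itself was too dim to be tested, with signals of 2.93, 11.7, 3.21 and 15.0.

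Of 9 genes for antigen processing in endosomes, 8 lay below the median and 1 above, with a list median of -0.12. In limma 0 of the 9 were called, beside 0.0622% of all probe sets. At an unadjusted p under 0.05 it was also 0, beside 19.1% of all tested genes. The list median was -0.29 without control replicate 2, -0.18 without hypomorph replicate 1 and -0.07 without hypomorph replicate 2. It was -0.06 without a filter on dim probe sets. Without hypomorph replicate 2, 6 genes lay below and 3 above, and without hypomorph replicate 1, 9 below and 0 above. The cathepsin genes Ctsb, Ctsl and Ctsd, which encode lysosomal proteases, were at 0.00, -0.44 and -0.03. Ctsl, whose product trims the invariant chain in thymic epithelium, had deposited signals of 7280 and 5852 in hypomorphs and 5776 and 6387 in controls, and its groups did not overlap after centring (adjusted p 0.465). Ctse had probe sets that disagreed. Its brighter one, used for the list, was at -0.63 relative to the tested genes (adjusted p 0.591), and the other rose by 4.07 on the log2 scale (adjusted p 7.78e-06).

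Genes of class II turnover and costimulation were mostly dim, and 4 of 7 were tested. Of these 3 lay below and 1 above the median, with a median of -0.20, or -0.11 with quantile normalization. In limma 0 of the 4 were called, beside 0.0622% of all probe sets. At an unadjusted p under 0.05 it was also 0, beside 19.1% of all tested genes. The B cell and dendritic cell receptor gene Cd40 was at -0.58, Cd83, which stabilises class II at the surface, at -0.34, Cd86 at -0.06 and Icosl at 0.22. The ubiquitin ligase genes Marchf1 and Marchf8, which drive class II from the surface, were not tested, with the latter at 0.595 to 1.64 on the 4 arrays.

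**Figure D4:**
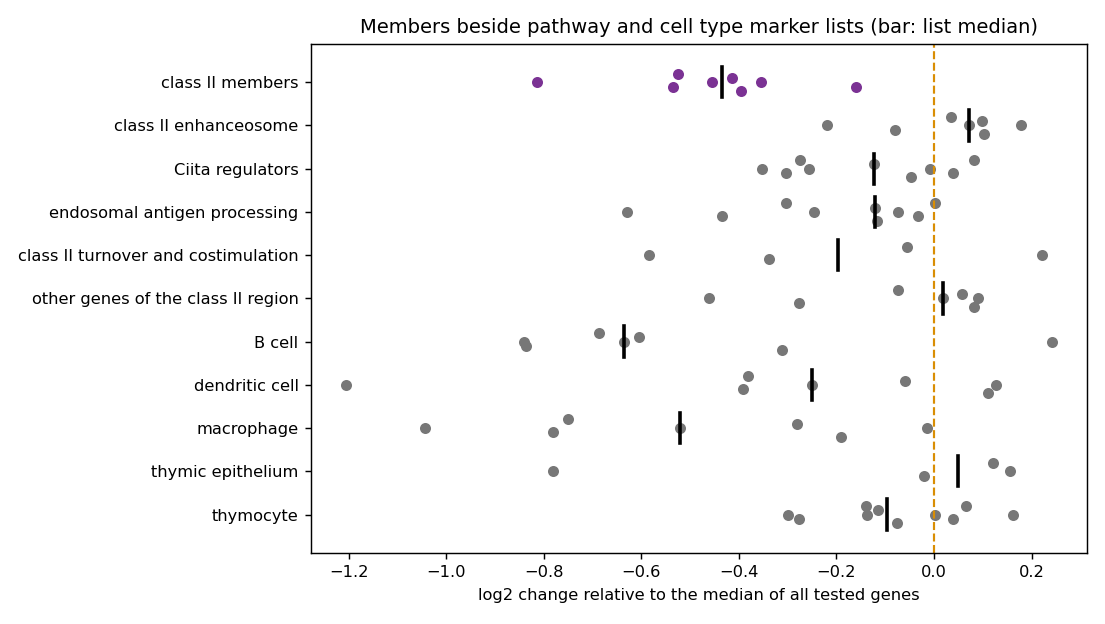
Log2 change relative to the median of all tested genes (x axis) for each tested gene of the lists named on the y axis, by its brightest probe set, with the list median as a bar. The class II members (purple) have a median of -0.43, beside -0.64 for B cell markers, -0.52 for macrophage markers and 0.07 for the DNA-binding factors of the class II promoter.

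Markers of B cells, macrophages and dendritic cells lay mostly below the tested genes and those of thymic epithelium on both sides, and their part in the result was not tested. Of 7 tested B cell markers, 6 lay below the median and 1 above, with a median of -0.64. With an array left out, this median ran from -0.71 (without hypomorph replicate 2) to -0.48 (without control replicate 2). Several of these markers were dim, such as Blk, with deposited signals of 63.2 and 53.9 in hypomorphs and 58.4 and 67.1 in controls. Only Cd79b was bright enough to stay tested when the cut was raised to the 75th percentile, at -0.63. The lowest p-values were those of Ms4a1, which encodes CD20 (-0.84, signals 114 and 81.6 against 119 and 120), Cd79a (-0.84), Cd22 (-0.69) and Cd79b (-0.61). Pax5, a B lineage factor, was at 0.24. In limma the adjusted p of Ms4a1 was 0.244, and 0 genes of any marker list were called. At an unadjusted p under 0.05, 2 of the 7 B cell markers were lower, Ms4a1 and Cd79a, as were 1.19% of all probe sets. The scaled signals of the 9 B cell markers summed to 525 and 529 in hypomorphs and to 640 and 780 in controls, without overlap. Before scaling these sums were 689 and 506 in hypomorphs and 532 and 747 in controls, with overlap. The separation after scaling was given no test. No signal of any marker list was at 0. The mean log2 signal of H2-Aa, H2-Ab1, H2-Eb1 and Cd74 minus that of the tested B cell markers on the same array was 3.63 and 3.49 in hypomorphs and 3.61 and 3.33 in controls. This difference shifted by 0.09 between groups, with overlap, while the class II genes shifted by -0.44 and the B cell markers by -0.53 relative to the tested genes. Taken against the other markers in the same way, the class II genes shifted by 0.07 for macrophages, -0.15 for dendritic cells and -0.31 for thymic epithelium, each with overlap.

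Of 7 tested macrophage markers all 7 lay below the median, with a median of -0.52 that was -1.12 without hypomorph replicate 1 and -0.11 without hypomorph replicate 2. Csf1r, the macrophage growth factor receptor, was at -0.75, and the complement genes C1qa, C1qc and C1qb at -0.78, -1.04 and -0.52. The others were nearer to the tested genes, with Cd68 at -0.28, Adgre1 at -0.19 and Fcgr1 at -0.01. With quantile or cyclic loess normalization, without a pseudocount, and with any array left out, 6 lay below the median and 1 above. Several macrophage markers were dim, such as C1qc, with deposited signals of 59.2 and 11.4 in hypomorphs and 29.6 and 50.9 in controls. No macrophage marker was bright enough to stay tested when the cut was raised to the 75th percentile. The 9 scaled markers summed to 609 and 385 in hypomorphs and to 655 and 577 in controls, so hypomorph replicate 2 was the low array. The median of the class II members was -0.47 and -0.41 without hypomorph replicates 1 and 2, and -0.39 and -0.53 without control replicates 1 and 2.

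Of 7 tested dendritic cell markers, 5 lay below the median and 2 above, with a median of -0.25. The chemokine gene Ccl17 was at -1.20, while Ccl22 was at 0.13, the receptor gene Ccr7 at 0.11 and Flt3 at -0.38. The sums of the 10 scaled markers were 679 and 957 in hypomorphs and 740 and 761 in controls, with overlap. Ccr7 was the brightest of these, with deposited signals of 401 and 456 in hypomorphs and 235 and 315 in controls, and weighs most in the sums. Which cells of the unsorted thymocytes its signal came from was not tested. Without control replicate 2 the list median was -0.59, and without control replicate 1 it was -0.05. Thymic epithelial markers were dim, 4 of 9 being tested, with 2 below and 2 above the median. Krt5, a keratin of medullary epithelium, was at -0.78, Ccl25 at 0.15, Epcam at 0.12 and Cldn4 at -0.02, and Aire, Foxn1, Psmb11, Krt8 and Krt14 were too dim to be tested. The 9 epithelial sums of 289 and 234 against 243 and 281 overlapped, and the list median of 0.05 was -0.41 without control replicate 1.

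The labelled cells were seen in the thymocyte markers, of which 10 were tested, 6 below and 4 above the median, with a median of -0.10. The 10 scaled signals summed to 26228 and 29721 in hypomorphs and to 24479 and 29509 in controls, with overlap. Cd4, at 0.16, Rag2, at 0.07, Ptcra, at 0.04, and Cd3e, at 0.00, had the lowest p-values against 0 and were the 4 above the median. Below it were Rag1 at -0.30, Cd8a at -0.28, Cd3g and Cd8b1 at -0.14, Cd1d1 at -0.12 and Themis at -0.08. Set against these markers on the same array, the mean of H2-Aa, H2-Ab1, H2-Eb1 and Cd74 was at -1.39 and -1.48 in hypomorphs and at -0.88 and -1.26 in controls. The groups were separate and shifted by -0.36, with control replicate 1 the highest array. That array also had the lowest mean of the thymocyte markers, 10.72 beside 10.91 in control replicate 2 and 10.89 and 11.01 in hypomorphs. The separation was given no test.

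**Figure D5:**
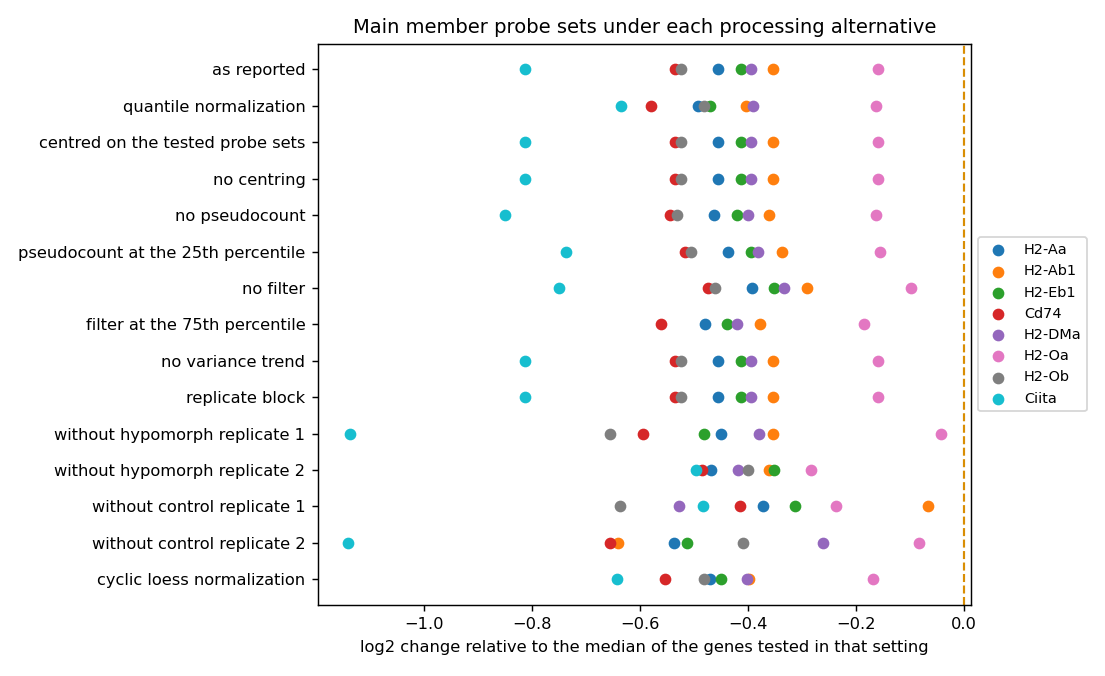
Change of the brightest tested probe set of each of the 8 member genes (colours) relative to the median of the genes tested in the same setting (x axis, log2), as reported and under 14 processing alternatives (y axis). In 4 of the alternatives the points cannot differ from those reported, because a shift of all probe sets or another variance model leaves relative changes as they are. All points lie left of 0, from -1.14 for Ciita to -0.04 for H2-Oa. Ciita and H2-Ob were not tested with the filter at the 75th percentile.

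The position of member genes with a probe set of their own, relative to the tested genes, held across processing, while their side of 0 did not. Of the 14 alternatives, 4 leave relative changes as they are by construction. In each of the 10 others all member genes tested on a probe set of their own lay below the median. Their median ran from -0.53 without control replicate 2 to -0.37 without a filter on dim probe sets. A probe set shared by H2-DMb1 and H2-DMb2 was at 0.06 without control replicate 1. On uncentred signals, where the tested genes had a median of 0.54, the log2 change of Cd74 was 0.00 and that of the brightest H2-Aa probe set 0.08. With quantile normalization, where that median was 0.02, 7 of the 15 member probe sets had an unadjusted p under 0.05, as had 6.91% of all probe sets (3.76% lower), and 0 were called in limma.

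The genes whose arrays were most like those of the class II chains were sought by the root mean square difference of log2 deviations over the 4 arrays. The mean profile of H2-Aa, H2-Ab1, H2-Eb1 and Cd74 was -0.13 and -0.10 in hypomorphs and 0.21 and 0.02 in controls. The nearest of 10227 genes were Pwwp2a (difference 0.02), Cul9 (0.03), Kbtbd11 (0.03), Arhgap28 (0.03) and Mapre2 (0.03), against a median difference of 0.28. Of these, Cul9 and Arhgap28 were dim, with deposited signals of 27.9 to 36.8 and 26.3 to 35.2. With 4 arrays, such likeness describes these libraries only.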

How the data were processed

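The authors deposited linear intensity values, 1 per probe set, for 4 Affymetrix arrays. They came from GCOS, per the submitters' processing notes, with no version, target of scaling or detection call given. Of 45101 probe sets, 64 Affymetrix controls were left out. Of the rest, 34945 carried 1 gene symbol, 932 several and 9160 none in the platform annotation. To each signal 2.29 was added, the 10th percentile of all signals, before taking log2, so that changes of dim genes are understated. Array medians spanned 0.66 (log2), above a limit of 0.3, so arrays were centred on the mean of their medians. The 22519 probe sets with a mean at or above the median were tested with limma 3.58.1 in R 4.3.3 (variance trend, no covariates, two-sided), with Benjamini-Hochberg adjustment over all of them and a threshold of 0.05. The procedure was tested on simulated data. P-values rest on 2 animals per group, which limits precision.

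A gene's brightest tested probe set with 1 symbol stood for it. Named were all members, Atg16l1, up to 4 genes per list by p-value, and 5 by likeness; further genes of lists were named after their values were seen. Members and lists were chosen with earlier results of these data known. Scaled sums divide each array's signals by its offset from the common median. Alternatives were other scalings, pseudocounts, filters and variance models, a replicate block, averaging a gene's probe sets and leaving out each array. Cyclic loess was added after seeing the data. Sequences were credited to RefSeq and searched with Python 3.11.15.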

Additional observations from a re-analysis of the deposited data

How the results depend on the processing

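No member probe set was called in limma under any alternative, and the members' median relative to the tested genes stayed within its spread between replicates in each of the 11 alternatives that could move it (4 others cannot, by construction). The direction against 0 did not hold: on uncentred signals the log2 changes were 0.0834, 0.0841 and 0.23 for 3 H2-Aa probe sets, 0.19 and 0.11 for 2 of H2-Ab1, 0.13 for H2-Eb1, 0.14 for H2-DMa, 0.0146 for H2-Ob, 0.0029 for Cd74 and 0.21 for a probe set of H2-DMb1 and H2-DMb2, the median of all tested genes being 0.54. H2-Oa turned to -0.14 with quantile normalization, -0.15 with cyclic loess and -0.12 where arrays were centred on tested probe sets, and to -0.11 and -0.08 without hypomorph replicate 2 and control replicate 1. With an array left out, an H2-Aa probe set ran from -0.26 (without hypomorph replicate 1) to 0.0588 (without hypomorph replicate 2), the brightest H2-Ab1 probe set from -0.38 (without control replicate 2) to 0.0909 (without control replicate 1), H2-DMa from -0.37 (without control replicate 1) to 0.0025 (without control replicate 2), and the probe set of H2-DMb1 and H2-DMb2 from -0.45 (without control replicate 2) to 0.22 (without control replicate 1). In all, 19 of 205 member values turned sign, and beyond the scaling the cause was not tested. The 205 include values with another filter, with the replicate block or without a variance trend, which cannot turn by construction.

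The number of probe sets called, 14 as reported, was 4 with quantile normalization, 5 with cyclic loess, 7 where centring used tested probe sets, 84 uncentred, 4 without a filter and 0 without a variance trend in limma (2492 at an unadjusted p under 0.05). It was 8 to 340 with an array left out. With the replicate block it was 9, and the block changed no member's call. Replicate numbers pair nothing in the labels, and deviations of same-numbered arrays correlated at 0.08 over 22519 probe sets. Atg16l1 lost its call uncentred (-1.25), without a filter (-1.57) and without a variance trend (-1.57), and ran from -1.66 to -1.48 with an array left out. Its probe set was not tested with the filter at the 75th percentile. Of 147 list medians under alternatives, 12 moved by more than their spread between replicates, and 7 had a change of sign. The 147 include those of the 4 alternatives that leave relative changes as they are by construction. Dim genes such as Ciita are limited by signal over background, for which no detection calls were used.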
